A study of Rattus norvegicus with 20 samples.

Results

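The muscle miRNAs are a small group of microRNAs named for their high levels in heart and skeletal muscle. They were followed here as 6 miRBase precursors, rno-mir-1, rno-mir-133a, rno-mir-133b, rno-mir-206, rno-mir-208a and rno-mir-499, of 444 precursors counted, together with the 9 of their mature arms among 577 mature miRNAs and their 6 RefSeq records among 388. Members were picked by name, with earlier results of these data known. The libraries came from untreated male Long Evans rats of postnatal day 35, with no drug, transgene or edited allele in any group, and were made to trace serum miRNAs to possible tissues of origin. A brain hemisphere and blood serum were each profiled in 3 libraries of 1 rat each, and each of 14 further tissues was profiled in 1 library of purified RNA pooled from the 3 rats: subcutaneous abdominal fat, heart, kidney, large intestine, liver, lung, skeletal (hindlimb) muscle, pancreas, skin, small intestine, spleen, stomach, testes and thymus.

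A miRNA is cut from the stem of a hairpin precursor, and 1 or both arms of that stem persist as mature strands of about the length printed below. Each mature strand directs silencing of messenger RNAs mainly through its seed, bases 2 to 8. The miR-1 and miR-133 families are encoded side by side and act on growth and differentiation of muscle cells, miR-206 is a close relative of miR-1 known from skeletal muscle, and miR-208a, miR-208b and miR-499 lie in introns of genes for myosin heavy chains and act on the choice among myosin isoforms.

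The mature sequences below show which members share a seed and which are so alike that short reads could be counted under either name. They are RefSeq sequences of the GRCr8 assembly, written 5′ to 3′ with the seed in capitals.

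rno-miR-1-3p: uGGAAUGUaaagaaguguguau

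rno-miR-1b: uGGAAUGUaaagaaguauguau

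rno-miR-206-3p: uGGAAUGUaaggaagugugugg

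rno-miR-133a-3p: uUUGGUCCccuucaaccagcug

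rno-miR-133b-3p: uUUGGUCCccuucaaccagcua

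rno-miR-208a-3p: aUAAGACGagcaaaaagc

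rno-miR-208b-3p: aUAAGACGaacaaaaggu

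rno-miR-499-5p: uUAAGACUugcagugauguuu

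These sequences fall into 4 seeds. The seed GGAAUGU was shared by 3 strands, miR-1-3p, miR-1b and miR-206-3p, and UUGGUCC by both miR-133 strands. The seed UAAGACG was shared by miR-208a-3p and miR-208b-3p, and that of miR-499-5p, UAAGACU, is the same through bases 2 to 7. Counted from the 5′ end, miR-1-3p differs from miR-1b by G17A and from miR-206-3p by A11G, A21G and U22G. The strands miR-133a-3p and miR-133b-3p have the same first 21 bases and differ only by G22A, so a read trimmed by its last base fits both, and how the counting shared such reads is not given in the sources used here. The level of mir-133b is therefore uncertain wherever mir-133a is abundant. The strands miR-1-3p and miR-1b share their first 16 bases, so the split of reads between mir-1 and mir-1b is uncertain too.

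In GRCr8, mir-1 lies at chr18:2160327-2160413 and mir-133a at chr18:2157872-2157958, 2368 bases apart on the minus strand and within the span of Mib1, a ubiquitin ligase gene. On the plus strand of another chromosome, mir-206 at chr9:30590697-30590780 and mir-133b at chr9:30594582-30594665 are 3801 bases apart. The precursor mir-208a lies at chr15:32395552-32395634 within the span of Myh6, the gene of the alpha myosin heavy chain of heart, and mir-499 at chr3:164570612-164570676 within that of Myh7b. The close relative mir-208b lies within Myh7, the gene of the beta chain, 25980 bases from mir-208a. The authors aligned their reads to the older Rn5 assembly, so these positions describe the genes and were not used in the counting.

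Depth sets what can be seen. Precursor counts totalled 162080 to 3685761 in the pools, 388275 to 1204552 in the brain libraries and only 7556 to 10862 in serum. Levels are given in RPM, a read count scaled to the total of precursor reads in the same library. A floor of 3 reads was 0.814 to 18.5 RPM in the pools, 2.49 to 7.73 RPM in brain and 276 to 397 RPM in serum. Each pool was 1 library, without any spread between rats, and all intervals (95% Wilson for levels) and floors cover counting error only. They treat reads as independent, while PCR reads without molecular identifiers are not independent molecules. The intervals can thus be too narrow even for counting error. As whole tissues were profiled, fewer muscle cells and less of a miRNA per cell cannot be told apart.

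The 6 precursors together made up 7.07% of precursor reads in skeletal muscle and 2.93% in heart. The next highest were serum replicate 3 at 0.290% and skin at 0.218%, and the other 16 libraries held at most 0.0276%. The labels of both striated tissues were checked with mir-208a, which had 323 reads in heart and 0 in skeletal muscle, and mir-206, which had 222 reads in skeletal muscle and 0 in heart. As both are members, this check and their levels and folds below are the same values and not separate evidence. Markers of other tissues also moved between libraries: the liver miRNA mir-122 was as high in the pancreas pool (14862 RPM) as in liver (14726 RPM), and the 3 pancreas markers (mir-375, mir-216a, mir-217) summed to only 496 RPM in the pancreas pool. The data thus go against the label of that pool, and the fit across pools below was repeated without it. Levels, shares and correlations below keep it under its label.

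**Figure D1:**
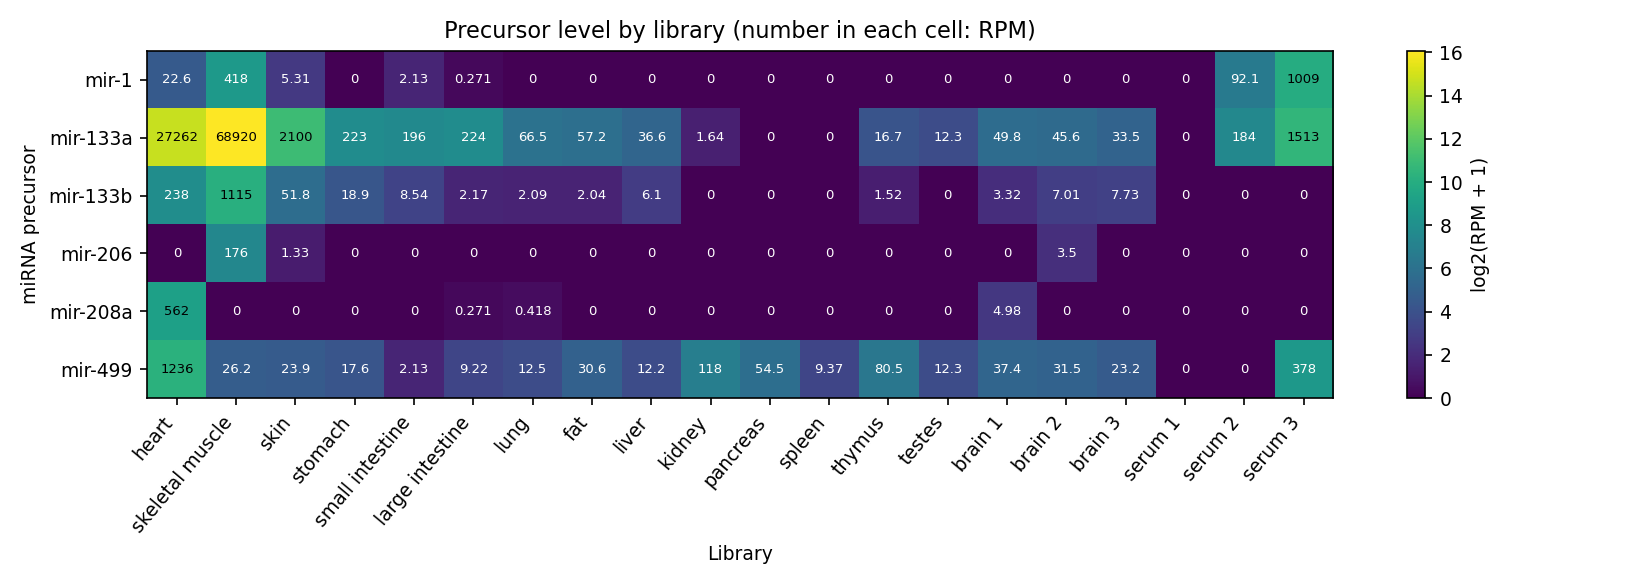
Level of the 6 muscle miRNA precursors (rows) in each of the 20 libraries (columns). The colour is log2(RPM + 1) and the number in each cell is the RPM. The heart and skeletal muscle pools hold the highest levels of mir-133a, at 27262 and 68920 RPM, mir-206 is at 176 RPM in skeletal muscle, and mir-208a is at 562 RPM in heart.

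The precursor mir-133a was by far the most abundant member. It had 68920 RPM in skeletal muscle (95% interval 68479 to 69364, 86814 reads), where it ranked 4 of 350 detected precursors, and 27262 RPM in heart (26845 to 27686, 15703 reads), where it ranked 9 of 294. Skin followed at 2100 RPM (1999 to 2206), then large intestine at 224, stomach at 223 and small intestine at 196 RPM. The intervals of the 3 gut pools overlapped, while those of skeletal muscle, heart, skin and the gut were each apart.

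Further down, mir-133a had 66.5 RPM in lung, 57.2 in fat, 43.0 ± 8.47 in brain (SD, n = 3; 49.8, 45.6 and 33.5 RPM in replicates 1 to 3), 36.6 in liver, 16.7 in thymus, 12.3 in testes and 1.64 in kidney. Spleen and pancreas had 0 reads, at floors that their shallow libraries set. From lung down each neighbour's interval overlapped the next, so adjacent tissues there have no order beyond counting error. The smooth muscle miRNAs mir-143 and mir-145, summed, were at 318244 RPM in large intestine, 308669 in small intestine and 613588 in stomach. They were at 67208 RPM in skeletal muscle and 167344 in heart. The highest of the remaining pools were spleen at 173139, thymus at 144310 and fat at 129483 RPM, where mir-133a was at 0, 16.7 and 57.2 RPM. The part of smooth muscle in the gut level of mir-133a was not tested.

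Its near twin mir-133b ran in the same order at the top and far lower. It was at 1115 RPM in skeletal muscle (1059 to 1175), 238 RPM in heart (201 to 281), 51.8 RPM in skin (37.9 to 70.8) and 18.9 RPM in stomach (11.4 to 31.2). The first 3 intervals were apart from each other and from stomach. Brain was at 6.02 ± 2.36 RPM (SD, n = 3), from 11 reads in all, and kidney, pancreas, spleen and testes had 0 reads.

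The precursor mir-1, known as an abundant miRNA of heart and skeletal muscle, was counted at low levels here. It had 418 RPM in skeletal muscle (383 to 455, 526 reads) and 22.6 RPM in heart (13.2 to 38.6, 13 reads), ranks 86 of 350 and 163 of 294. Beyond those, skin had 4 reads, small intestine and large intestine had 1 each, and the other 10 tissues had 0. Its close relative mir-1b had 411 reads in skeletal muscle and 28 in heart. The antisense precursor mir-3571, looked up after these values were seen, covers all 87 bases of mir-1 on the other strand. It held at most 3.24 reads in any library in the mature list and fewer in the precursor list.

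The precursors mir-206 and mir-208a were each nearly confined to 1 pool at this depth. In skeletal muscle mir-206 was at 176 RPM (155 to 201). Elsewhere it had 1 read in skin, 2 reads in brain replicate 2 and 0 in the 17 remaining libraries. In heart mir-208a was at 562 RPM (503 to 625), against 6 reads in brain replicate 1 and 1 read each in lung and large intestine. These 1 to 6 reads carry no order, and the 0 reads elsewhere were seen against floors of up to 18.5 RPM in the pools and 276 to 397 RPM in serum. Of the 6 brain reads almost none were on miR-208a-5p. The antisense precursor mir-3546, which covers all 83 bases of mir-208a on the other strand, held at most 5.0 reads in the mature list, in brain replicate 1, and at most 3.52 in the precursor list, in heart, so the strand of the brain reads is uncertain.

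The precursor mir-499 was the only member with at least 1 read in every tissue, in some of them below the floor of 3 reads. It was at 1236 RPM in heart (1149 to 1330, 712 reads), followed by kidney at 118 RPM (93.5 to 148, 72 reads), thymus at 80.5 (61.5 to 105, 53 reads), pancreas at 54.5 (30.4 to 97.6, 11 reads), brain at 30.7 ± 7.13 (SD, n = 3; 37.4, 31.5 and 23.2), fat at 30.6 and skeletal muscle at 26.2 RPM (18.7 to 36.8, 33 reads). The label of the pancreas pool is in doubt, as said above, and so is the place of pancreas in this order. Heart was apart from all others. Kidney was above skeletal muscle with intervals that did not overlap, while every pair of neighbours from kidney down overlapped.

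The remaining tissues held mir-499 at 2.13 RPM in small intestine to 23.9 RPM in skin. All 15 tissues had at least 1 read of mir-499, against 13 for mir-133a, 11 for mir-133b, 5 for mir-1, 4 for mir-208a and 3 for mir-206. With 3 reads or more, mir-133b was in 8 tissues, mir-1 in 3, mir-208a in 2 and mir-206 in 1. By that count mir-499 was in 12, close to mir-133a at 11. Its profile also ran apart from that of mir-133a among the non-muscle tissues: kidney had 72 reads of mir-499 and 1 of mir-133a, and thymus had 53 and 11. Over the 15 tissues Pearson's r of log2(RPM + 1) between both was 0.23, as a description of points that share their library's depth.

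**Figure D2:**
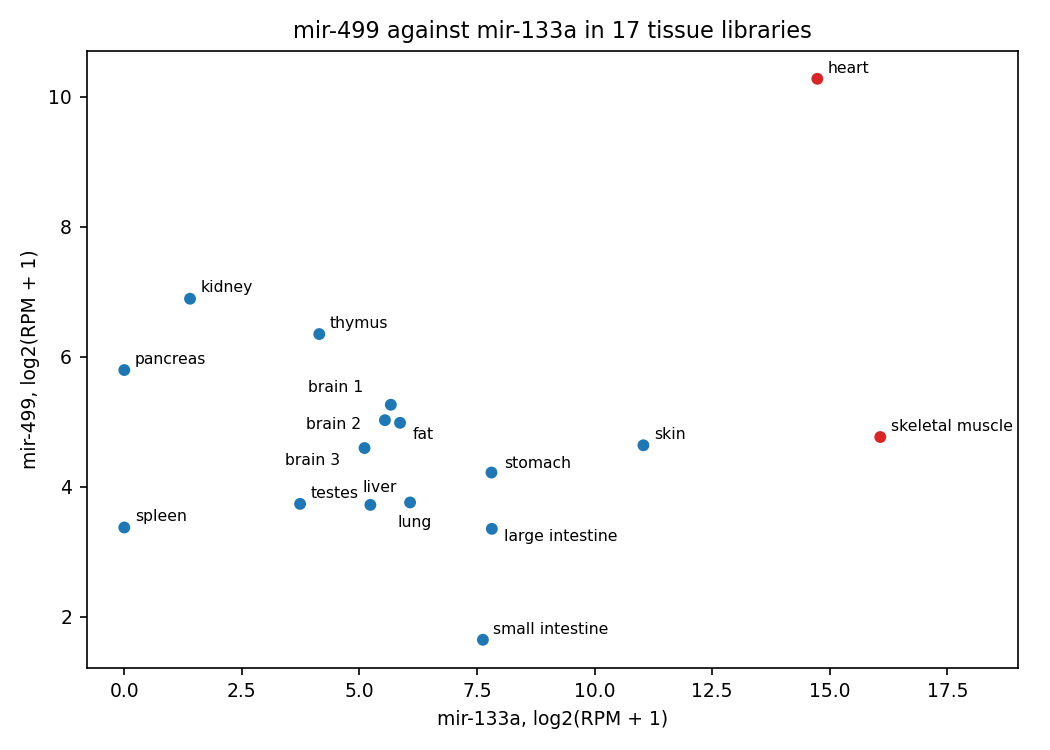
mir-499 (vertical axis) against mir-133a (horizontal axis), both as log2(RPM + 1), in the 14 pools and 3 brain libraries. Each point is 1 library and red marks heart and skeletal muscle; skeletal muscle lies at the far right with mir-499 at 26.2 RPM, below kidney at 118 RPM and thymus at 80.5 RPM.

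To put these profiles on 1 scale, the share of each precursor's RPM, summed over the 15 tissues, that lay in heart and skeletal muscle was taken. It was 99.6% for mir-208a, 98.6% for mir-206, 98.3% for mir-1, 97.0% for mir-133a, 93.2% for mir-133b and 75.3% for mir-499. Over 282 precursors that reached 10 counts in 2 or more tissues the median share was 11.7%, 12 were above 50% and 5 above 90%. Those 5 were mir-1, mir-133a, mir-133b, mir-1b and mir-208b. As members were chosen as muscle miRNAs, high shares describe them and are not a finding about the group.

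**Figure D3:**
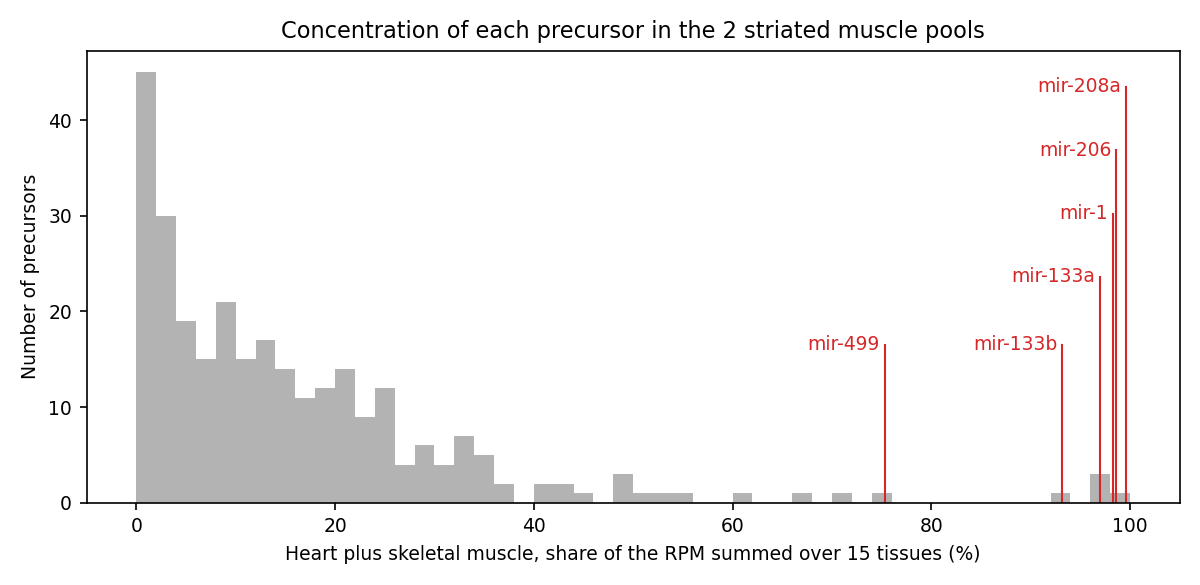
Share of each precursor's RPM summed over 15 tissues that lay in the heart and skeletal muscle pools (horizontal axis, %), for 282 precursors (grey bars, number of precursors). Red lines mark the 6 members, of which mir-206 and mir-208a reached 10 counts in only 1 tissue and are not in the bars; mir-499 lies at 75.3% and the other 5 above 90%.

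Whether these precursors differed between striated muscle and the rest by more than tissues differ among themselves was tested with edgeR's quasi-likelihood test, heart and skeletal muscle against 12 other pools, with tissues as the replicates and Benjamini-Hochberg adjustment over 253 precursors. In all, 5 precursors (1.98% of those tested) were higher in heart and skeletal muscle and 0 (0%) were lower, with 32 higher and 17 lower at an unadjusted p under 0.05. DESeq2 called 16 higher and 17 lower. The 5 were mir-1, mir-133a, mir-133b, mir-1b and mir-208b.

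Of the members, mir-133a was higher by 7.42 on the log2 scale (SE 1.58, adjusted p = 0.0146), with 27262 and 68920 RPM against 0 to 2100 RPM (median 46.9) in the 12 others. The value for mir-133b was 6.0 (SE 1.21, adjusted p = 0.0105), with 238 and 1115 RPM against 0 to 51.8 (median 2.07). For both, heart and skeletal muscle were above each of the 12 others. Without the skeletal muscle pool neither call held, at 6.63 for mir-133a and 4.52 for mir-133b. Without the heart pool the values were 8.59 for mir-133a and 7.46 for mir-133b. Each of these fits leaves 1 striated pool, which is assumed to vary like the others.

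The call of mir-1 (7.79, SE 1.08, adjusted p = 6.05e-04) adds little, since it reached 10 counts only in heart and skeletal muscle and so entered the test through being high there. The same holds for mir-1b, and for mir-208b, which reached 10 counts in only 1 other pool, thymus. The precursors mir-206 and mir-208a reached 10 counts in 1 pool each and were not tested. Both striated pools were above every other pool for 9 of 253 precursors (3.56%): mir-1, mir-133a, mir-133b, mir-1b, mir-149, mir-30c-1, mir-30c-2, mir-378a and mir-378b.

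For mir-499 the log2 difference was 3.99 (SE 1.02) and missed the threshold (adjusted p = 0.0501). The 2 striated pools lay apart, at 1236 and 26.2 RPM, and the 12 others ranged from 2.13 to 118 RPM (median 15.1), so the groups overlapped. Without the heart pool its value was −0.12 (adjusted p = 0.977), without the skeletal muscle pool 4.96 (adjusted p = 0.0385), and without skin 4.08 (adjusted p = 0.0269). The value for mir-499 thus rests on heart.

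Heart and skeletal muscle were set against each other directly, and the members parted into those higher in each. With 1 library a tissue there is no test, and folds carry counting error only. Of 244 precursors with at least 10 counts in either pool, 24.2% were at least 4-fold lower in heart, 7.38% were at least 4-fold higher in heart, and the median log2 ratio of heart over skeletal muscle was −0.34, so a ratio below 0 was the more common one here.

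The 4 members of the miR-1 and miR-133 families were all higher in skeletal muscle. The fold of skeletal muscle over heart was 2.53 for mir-133a (2.49 to 2.57), 4.69 for mir-133b (3.93 to 5.63) and 18.5 for mir-1 (10.7 to 35.0, from 13 heart reads). The precursor mir-206, with 0 reads in heart, was at least 33.8-fold higher in skeletal muscle, against the heart floor of 5.21 RPM. The 2 members of myosin genes were higher in heart, mir-499 by 47.2-fold (33.3 to 69.1) and mir-208a by at least 236-fold against the skeletal muscle floor of 2.38 RPM. Of the relatives, mir-1b was 6.71-fold higher in skeletal muscle (4.58 to 10.2) and mir-208b was 183-fold higher in heart (118 to 299.7). The folds of mir-1 and mir-1b depend on how reads that fit both were counted, which the intervals do not cover.

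**Figure D4:**
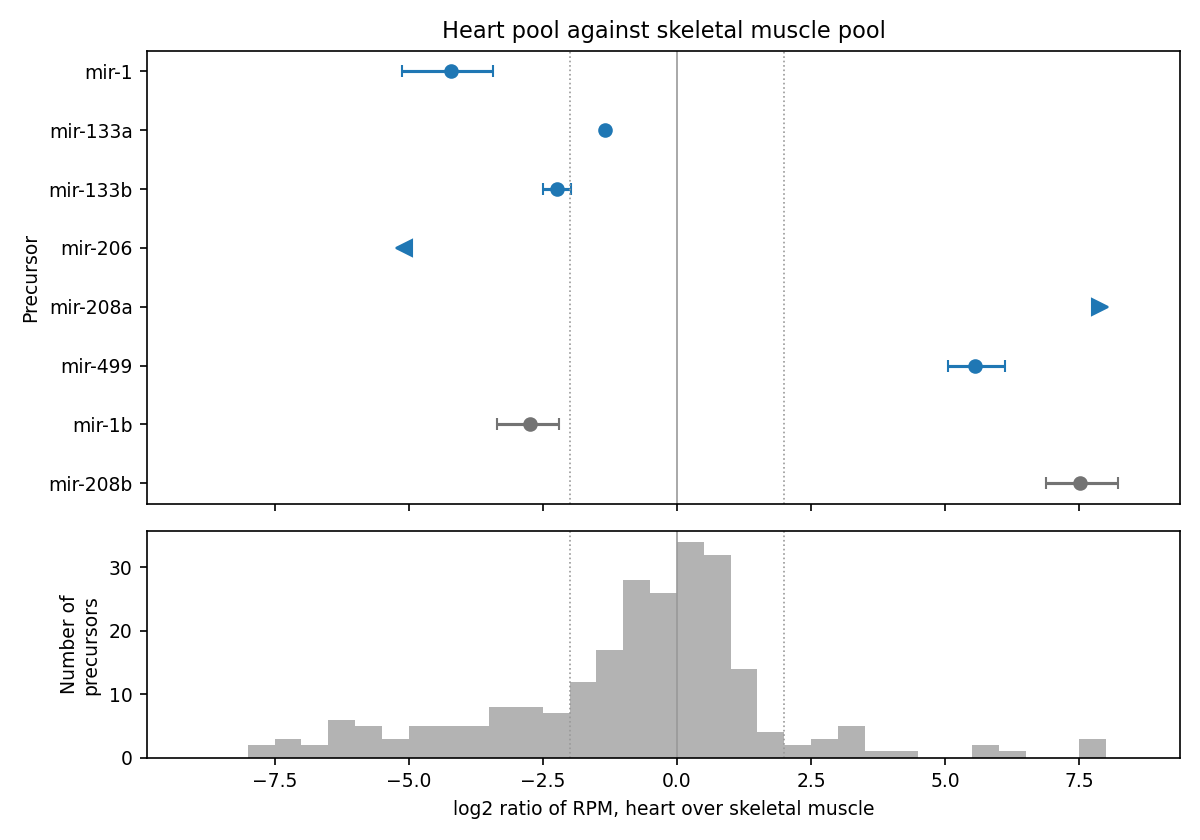
Upper panel: log2 ratio of RPM, heart over skeletal muscle, for the 6 members (blue) and the relatives mir-1b and mir-208b (grey), with 95% counting intervals; arrowheads for mir-206 and mir-208a are bounds at the floor of 3 reads in the pool with 0 reads. Lower panel: the same ratio for 244 precursors, where 24.2% lie left of the left dotted line and 7.38% right of the right one (4-fold each way).

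Since genes of a pair share a transcript or a neighbourhood, reads of the members were also compared within a library, where depth cancels. Only skeletal muscle held 20 reads of mir-1. There, 100 reads of mir-1 stood beside 42.2 of mir-206 (35.9 to 49.5), 267 of mir-133b (241 to 296), 6.27 of mir-499 (4.27 to 8.92) and 16505 of mir-133a (15149 to 18016). The neighbours mir-1 and mir-133a were thus 165 reads to 1 apart, and the neighbours mir-206 and mir-133b stood at 15.8 to 100 (13.7 to 18.2). These are ratios of reads and not of molecules.

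The ratios to mir-133a moved when only reads on listed mature arms were compared, a choice made after seeing the data. In skeletal muscle 464 arm reads of mir-1 stood beside 8596 of mir-133a, or 18.5 reads to 1, and in heart 9 stood beside 1216. Per 100 arm reads of mir-133a, mir-1 had 5.40 in skeletal muscle (4.91 to 5.93) and 0.740 in heart (0.338 to 1.41), which were still apart. On arms mir-133b had 16.3 per 100 in skeletal muscle (15.4 to 17.3), 11.3 in heart (9.37 to 13.5), 24.1 in skin (16.5 to 34.3), 36.6 in stomach (18.8 to 67.5) and 45.0 over the 3 brain libraries (18.0 to 103), so the intervals of stomach and brain then overlapped that of skin. For mir-499 it was 46.2 in heart (41.7 to 51.1) and 0.326 in skeletal muscle (0.216 to 0.471). Next to 100 arm reads of mir-1 in skeletal muscle, mir-206 had 39.9 and mir-133b 303.

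Per 100 precursor reads of mir-133a, mir-1 had 0.606 reads in skeletal muscle (0.555 to 0.660), 0.253 in skin (0.0689 to 0.649) and 0.0828 in heart (0.0441 to 0.142). The heart and skeletal muscle intervals did not overlap, and that of skin overlapped both. The ratio of mir-133b to mir-133a was 0.872 per 100 in heart (0.732 to 1.03), 0.969 in large intestine (0.417 to 1.92), 1.62 in skeletal muscle (1.53 to 1.71), 2.47 in skin (1.75 to 3.39), 8.47 in stomach (4.64 to 14.4) and 11.1 over the 3 brain libraries (5.37 to 20.8). Stomach and brain were above heart, skeletal muscle and skin, on 15 and 11 reads of mir-133b.

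In heart, mir-208a and mir-499 stood at 45.4 to 100 (39.7 to 51.8), and mir-208b was read 5.17 times as often as mir-208a, with 1670 and 323 reads. In skeletal muscle mir-208b had 20 reads and mir-208a 0. In heart mir-499 had 4.53 reads per 100 of mir-133a (4.20 to 4.89), and in skeletal muscle 0.0380 (0.0262 to 0.0534).

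How precursor reads were split over mature strands is a readout that the choice of members did not use. Precursor and mature rows count the same reads, and a read counted under a precursor need not be counted under 1 of its listed arms. For mir-133a only 7.74% of precursor reads in heart (7.34 to 8.17) and 9.90% in skeletal muscle (9.70 to 10.1) were on a listed arm, and over the 10 libraries with at least 20 reads the share ran from 5.43% in small intestine to 23.2% in stomach. For mir-133b it was 100% in heart, skeletal muscle and skin.

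The shares of the others lay high except for mir-208a. In skeletal muscle 88.2% of mir-1 reads (85.2 to 90.7) and 83.3% of mir-206 reads (77.9 to 87.7) were on a listed arm, and mir-499 was between 77.8% in kidney and 96.2% in thymus over 7 libraries. For mir-208a it was 5.22% in heart, but the mature list used here holds only miR-208a-5p, not the miR-208a-3p strand printed above. Among precursors with at least 100 reads whose arms carry their name, the median was 54.4% in heart (85 precursors, 20 of them below mir-133a) and 67.6% in skeletal muscle (121, with 25 below). A low share was thus not particular to mir-133a.

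The reads that were on an arm fell almost wholly on 1 strand. The 3′ strand took 96.4% of the arm reads of mir-133a in skeletal muscle (96.0 to 96.8, 8285 of 3p and 311 of 5p), 96.1% in heart, 96.6% in large intestine, 95.1% in skin and 100% in stomach, with overlapping intervals. For mir-133b the 3′ strand took 99.7% in skeletal muscle. For mir-499 the 5′ strand took 99.3% in heart (98.2 to 99.7) and 98.2% in kidney (90.6 to 99.7), so the kidney reads lay on the same strand as the heart reads.

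The antisense record mir-133c, whose mature strand is the reverse complement of bases within miR-133a-3p, held at most 0.907 reads in any library. The RefSeq row of each member equalled its miRBase precursor row in 20 of 20 libraries, within 0.01 reads, so it is no second measurement.

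**Figure D5:**
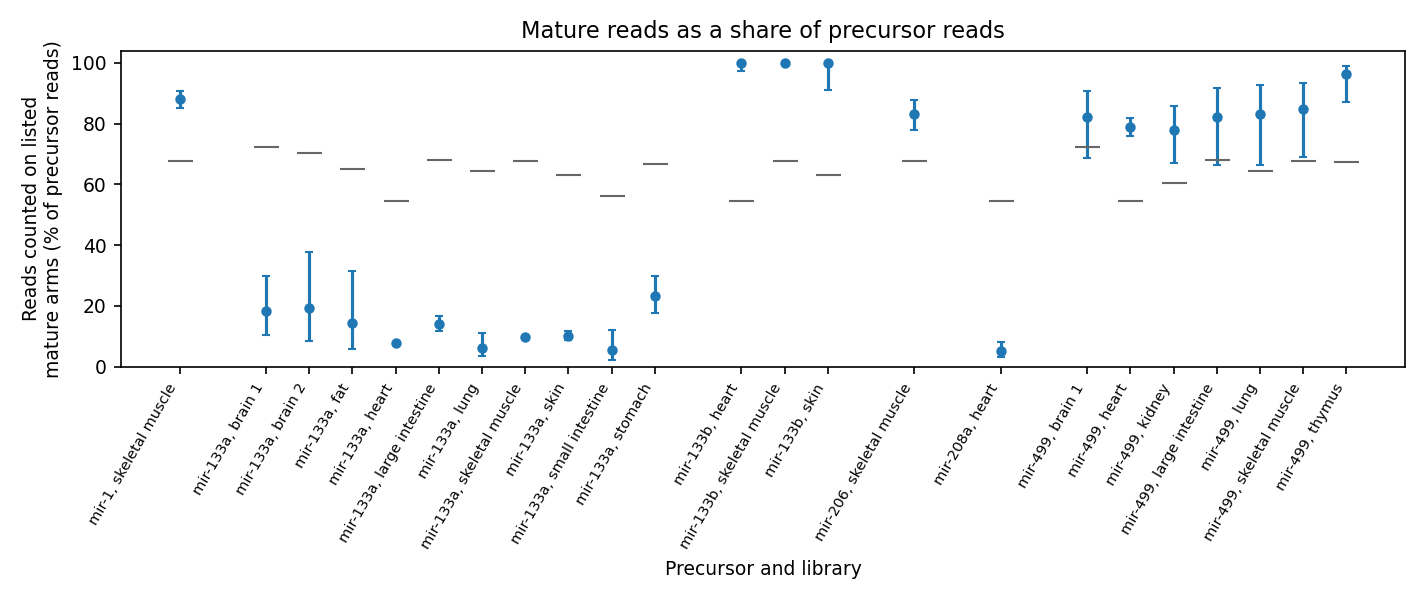
Percentage of a precursor's reads counted on its listed mature arms (vertical axis) in each library with at least 20 precursor reads. Blue points are members with 95% Wilson intervals, and the grey dash is the median over precursors with at least 100 reads in the same library; mir-133a lies at 5.43% to 23.2% and mir-133b at 100%.

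Serum is the fluid in which the study sought its biomarkers, and muscle miRNAs in blood are known as signs of muscle injury. Replicates 1, 2 and 3 had 0, 3 and 23 reads of the 6 members. By precursor, mir-133a had 0, 2 and 12 reads (0, 184 and 1513 RPM), mir-1 had 0, 1 and 8 (0, 92.1 and 1009 RPM) and mir-499 had 0, 0 and 3 (378 RPM in replicate 3). Nearly all of these reads came from replicate 3, and mir-133b, mir-206 and mir-208a had 0 reads in all 3, where 3 reads of the 26348 together would be 114 RPM and the 95% Wilson upper limit of 0 reads is 146 RPM. On the listed arms serum had 9 reads of mir-1, 3 of mir-499 and 0 of mir-133a, so none of the 14 precursor reads of mir-133a was counted on miR-133a-3p or miR-133a-5p.

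The mix of precursor reads in serum, nearly all from replicate 3, was unlike that in either muscle pool. Over the 3 libraries serum held 64.3 reads of mir-1 per 100 of mir-133a (24.5 to 159), from 9 and 14 reads, while skeletal muscle held 0.606 and heart 0.0828. Of those serum reads 8 and 12 came from replicate 3, and replicate 1 had 0 of either. The intervals did not overlap, but they leave out the spread between rats, so this describes mainly 1 library. With 0 arm reads of mir-133a in serum, no such ratio can be given on arms. The relative mir-1b had 0, 1 and 9 reads in serum. The red cell markers listed here summed to 2779, 2210 and 4288 RPM in replicates 1 to 3, highest in replicate 3. In the spleen pool they summed to 12815.5 RPM, with 0 reads of mir-1 and mir-133a and 2 of mir-499 at a floor of 14.1 RPM. The part of red cells in the serum levels was not tested.

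Brain against serum was the 1 contrast with replicates, with edgeR's quasi-likelihood test over 235 precursors. In serum 44 (18.7%) were higher and in brain 105 (44.7%). Of the members only mir-133a had enough counts to be tested, and its value was −3.73 for brain over serum (SE 0.83, adjusted p = 0.00178). Serum replicates 2 and 3 were above all 3 brain libraries (33.5 to 49.8 RPM), replicate 2 on 2 reads, while replicate 1 had 0 reads at a floor of 397 RPM, above every brain level, so the groups overlapped. On listed arms mir-133a had 11, 5 and 4 reads in brain replicates 1 to 3 (10.3 to 12.2 RPM of mature reads) and 0 in each serum library. The mature list thus does not show the higher serum level. With serum floors of 427 to 614 RPM of mature reads, it cannot exclude that level either.

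The edgeR call was also lost without 1 of several libraries. The difference was −1.59 without serum replicate 3 (adjusted p = 0.309), −2.85 without brain replicate 1 (adjusted p = 0.0565) and −2.59 without brain replicate 3 (adjusted p = 0.0713), with 68 precursors left to test in the fits without a brain library. It held at −2.78 without brain replicate 2 (adjusted p = 0.0455). Serum and tissue RNA were purified with different kits, and fluid and kit cannot be told apart. The p-values measure the spread between libraries of 3 rats.

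By a rule that took the 3 non-member precursors with the highest Pearson's r of log2(RPM + 1) over 15 tissues, mir-1b was first for mir-1 (0.98), mir-133b (0.94), mir-133a (0.89) and mir-206 (0.78). The next were mir-378a (0.75) and mir-378b (0.74) for mir-1, mir-378b (0.82) and mir-149 (0.77) for mir-133a, mir-378b (0.84) and mir-378a (0.74) for mir-133b, and mir-493 (0.77) and mir-539 (0.72) for mir-206. For mir-208a they were mir-208b (0.82), mir-490 (0.61) and mir-30c-1 (0.56), and for mir-499 mir-30e (0.74), mir-208b (0.62) and mir-30c-2 (0.62). Profiles that rest on 1 pool, as those of mir-206 and mir-208a do, match whatever else is high there, and of the 3 names for mir-206 only 1 remained with Spearman's rho and 0 with 0.1 RPM added in place of 1. With Spearman's rho 1 of 3 names also remained for mir-208a (mir-490) and for mir-499 (mir-30e), and 2 of 3 for each of mir-1, mir-133a and mir-133b. The precursor mir-1 had 0 reads in 10 of the 15 tissues, so its values rest mostly on skeletal muscle and heart. Its mature strand shares the first 16 bases with miR-1b, and the part of shared reads in their r was not tested.

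Among the members themselves r was 0.95 between mir-133a and mir-133b, which lie on different chromosomes, 0.83 between the neighbours mir-1 and mir-133a, 0.70 between the neighbours mir-206 and mir-133b, and 0.75 between mir-208a and mir-499. It was −0.09 between mir-206 and mir-208a. These values describe 15 tissues and share their libraries' depth. The 3′ strands of mir-133a and mir-133b share their first 21 bases, and the part of shared reads in their r was not tested. Values with mir-206 or mir-208a rest mostly on the 1 pool where each is high, and those with mir-1 on skeletal muscle and heart.

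Of 16 other miRNAs known from striated muscle, 13 were in the precursor list under the name looked for. The list also holds mir-322-1, mir-322-2, mir-503-1 and mir-503-2, which the names mir-322 and mir-503 did not match and which are left out here. Only the close relatives mir-1b (6.70, SE 0.97, adjusted p = 6.05e-04) and mir-208b (8.05, SE 1.25, adjusted p = 9.12e-04) passed the test of heart and skeletal muscle against the other pools, 2 of 13 beside 1.98% of all, and 0 of the 13 were lower. Both entered the test through heart and skeletal muscle, so their calls add little. The median log2 difference was 0.85 over the 13 and −0.09 over all 253. The metabolic miRNA mir-378a was at 24224 RPM in heart and 72069 in skeletal muscle against 1203 to 13742 elsewhere and did not pass (2.20, SE 0.84, adjusted p = 0.175). The rest of the 13, among them mir-22, mir-30a, mir-26a and mir-27b, had values between −1.04 and 3.24 and none passed.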

How the data were processed

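The members and lists were chosen with earlier results of these data known. Small RNA libraries (Illumina TruSeq, MiSeq) were trimmed at a phred score of 20 and aligned by the authors with Bowtie to Rn5, then quantified in Partek Flow and Strand NGS against miRBase 21 precursors, mature miRNAs and RefSeq miRNAs. Software versions and the settings for mismatches, multiple hits and strand are not given in the sources used here. The deposited values are estimated counts (some are not whole), with the 3 annotations counting the same reads. Each level was divided by its own annotation's total, and counts were rounded for testing.

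Tests used edgeR 4.0.16 (quasi-likelihood, TMM, Benjamini-Hochberg, threshold 0.05) in R 4.3.3, on precursors with at least 10 counts in 2 of 14 pools, or in 3 of 6 brain and serum libraries. DESeq2 1.42.0 was an alternative. Fold changes are on the log2 scale of fitted counts. On simulated data 23.3% of 8-fold changes were recovered in the pools and 96.6% between brain and serum, so the first test misses most changes of that size. Intervals are 95% Wilson for levels and exact for ratios (SciPy 1.17.1).

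Named miRNAs were the 6 members and their arms, the 3 precursors most like each, and the list of 16. Ratios were planned to mir-1 in libraries with at least 20 of its reads, which left 1 library; ratios to mir-133a were added after seeing the data, as were ratios on mature arms, the antisense records and the fit without skin.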

Additional observations from a re-analysis of the deposited data

How the results depend on the processing

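Pools carry 1 library each from 3 rats, so the spread between rats was not measured. In serum no level under 276 RPM reaches 3 reads. Reads that fit both miR-133 strands, or both miR-1-3p and miR-1b, cannot be told apart.

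In the comparison of striated muscle with 12 pools, the count of higher precursors was 10 with library totals (median shift of all precursors 0.13), 16 with DESeq2 (17 lower), 3 with 10 counts in 3 pools, 12 without a filter, 25 without heart, 2 without skeletal muscle and 22 without skin (chosen after seeing the data). Without skeletal muscle mir-133a was at 6.63 and mir-133b at 4.52, both short of the threshold. Without heart they were at 8.59 and 7.46. For mir-499 the value was −0.12 without heart, and it passed at 4.30 with library totals, 3.99 with DESeq2, 4.28 without a filter, 4.96 without skeletal muscle, 4.06 with summed brain added and 4.08 without skin. The mir-1 call held in each of the 7 fits that tested it. Leaving out pancreas changed no call of a member. The cause of these changes was not tested.

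For heart over skeletal muscle, each member kept its direction. The log2 ratio of mir-133a was −1.17 with TMM, −1.02 with DESeq2 size factors and −1.93 on its main mature arm, that of mir-133b −1.92 and the bound for mir-206 −4.77 with DESeq2 size factors, and the bound for mir-208a 8.05, 8.20 (DESeq2 size factors) and 3.39 (on miR-208a-5p).

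Between brain and serum, 26 were higher in brain and 20 in serum with 10 counts in every library. Leaving out 1 library gave 29 to 102 higher in brain, 25 to 43 higher in serum and −4.14 to −1.59 for mir-133a, with fewer precursors tested without a brain library. Same-numbered brain and serum libraries come from the same 3 rats, but their deviations correlated at 0.10, −0.11 and −0.08, so the numbers are not shown to pair them; with a replicate block 97 were higher in brain, 44 in serum, and mir-133a was at −3.51 (adjusted p = 0.00193).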

Other observations

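Scaling the levels by TMM or DESeq2 size factors in place of library totals moved 27 and 29 of 54 levels above 0 (a member in a tissue or serum) by more than 1.5-fold. Counting the summed mature arms moved 21 of the 54 by that much, and the RefSeq total 4.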
